A study of Mus musculus with 4 samples.

Results

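TUFT cells were 638 of the 15234 kept cells of 4 single-cell RNA libraries from mouse duodenal crypts. They were chosen by name: the authors' per-cell tables give each kept cell 1 of 12 cell names, and the cells named TUFT were matched by library and barcode to the unfiltered count matrices. The WT libraries (n = 2) came from Atoh1CreER-T2;R26RTom mice, and the APC-KO libraries (n = 2) from mice labelled Atoh1Cre;Apcfl/fl;R26RTom, for which the series text names the inducible CreER-T2 form as well. All mice, controls included, carried the Atoh1-driven recombinase and the R26RTom red fluorescent reporter and had received intraperitoneal tamoxifen at 1 mg/mL, with 24 h between its 2 doses and harvest 12 h after the last. Only living reporter-positive (TOM+) cells were sorted into the libraries, so the sort set which cells could be named. The labels give no age, sex, animal or preparation date, and nothing says whether the 2 libraries of a genotype came from separate animals, so p-values measure the spread between libraries alone.

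Tuft cells are rare chemosensory cells of the gut epithelium. They carry a taste-like signalling chain in which a receptor acts through a G protein and phospholipase C to release calcium and open the cation channel Trpm5. In the small intestine they are known for releasing IL-25 upon sensing parasites or microbial metabolites, for making prostaglandins and cysteinyl leukotrienes, and for depending on the transcription factor Pou2f3. The Apc protein takes part in the destruction of beta-catenin, so its loss is known to raise Wnt target genes. Atoh1 is the transcription factor that opens the secretory lineages of goblet, Paneth and endocrine cells.

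The TUFT cells numbered 231 in WT replicate 1, 123 in WT replicate 2, 8 in APC-KO replicate 1 and 276 in APC-KO replicate 2. Their summed UMIs (unique molecular identifiers, each standing for 1 captured RNA molecule) came to 878786, 565970, 52826 and 862885 in the same order. Levels are given as CPM, a gene's share of the TUFT UMIs of a library times 1000000. A single UMI was therefore worth 1.14, 1.77, 18.9 and 1.16 CPM, and values of APC-KO replicate 1 move in coarse steps. That library stood apart: 5.15% of its UMIs lay in kept cells, against 37.6% to 50.3% in the other 3. The median TUFT cell held 3879, 4643, 6934.5 and 2676 UMIs and 1855, 2132, 2410 and 1384.5 genes, with 4.40%, 4.80%, 5.37% and 3.95% mitochondrial UMIs. Kept cells of different libraries shared between 1 and 8 barcodes per pair of libraries, and no TUFT barcode was shared.

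The tuft markers were high in the cells named TUFT. The names come from the same transcripts, so these levels describe the named cells without a test. Dclk1, a microtubule-associated kinase (chromosome 3, chr3:55242364-55539068, mm10 and GRCm38 coordinates), was at 1359 and 1449 CPM in the WT pair and at 757 and 1086 CPM in the APC-KO pair, against 12.7 CPM in EC, the highest of the 11 other names. Trpm5, the cation channel (chr7:143069153-143094642), was at 402 and 470.0 CPM in the WT pair and at 322 and 336 CPM in the APC-KO pair, with 11.4 CPM in SEC-PRO as the next level. Rgs13, a regulator of G protein signalling (chr1:144138654-144177372), was at 1616 and 1982 CPM in the WT pair and at 549 and 858 CPM in the APC-KO pair and no higher than 3.80 CPM in ENTERO-PRO. All 3 were high in every library and close to 0 elsewhere, and the 2 WT libraries lay above the 2 APC-KO libraries for each of them (39.7% of the 7695 genes tested between genotypes showed no overlap in either direction). Avil, the actin-bundling protein advillin (chr10:127000709-127020994), was at 820.5 and 832 CPM in the WT pair and at 663 and 662 CPM in the APC-KO pair, against 16.9 CPM in SEC-PRO.

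**Figure D1:**
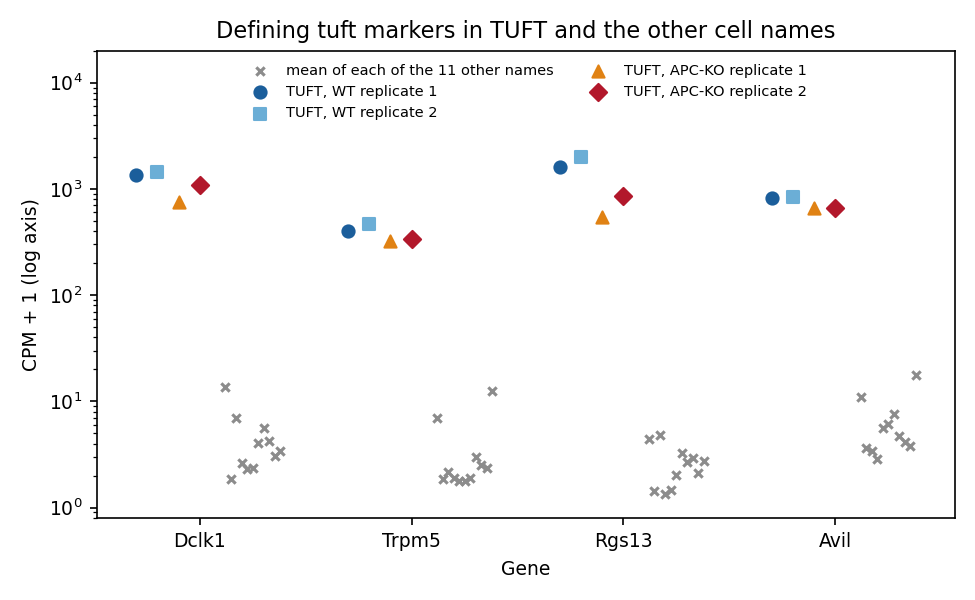
Levels of Dclk1, Trpm5, Rgs13 and Avil as CPM + 1 on a log axis, with coloured symbols for the TUFT sum of each library and grey crosses for the mean of each of the 11 other cell names. The lowest TUFT value, 322 CPM for Trpm5 in APC-KO replicate 1, lies far above the highest value of any other name, 16.9 CPM for Avil in SEC-PRO.

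In single cells, 316 TUFT cells held UMIs of all 4 markers, 178 of 3, 96 of 2, 36 of 1 and 12 of none. At least 2 markers were seen in 92.5% of TUFT cells, with 93.9%, 95.9%, 87.5% and 89.9% in the 4 libraries. Of the 14596 cells with another name, 85 (0.582%) reached 2 markers: 18 were named ISC, 17 SEC-PRO and 15 EC, and none EEC-PRE. The TUFT-high genes described next made up a median of 0.256% (PANETH-PRE) to 1.36% (EC) of the UMIs of those 85 cells, name by name, against 3.36% in TUFT cells with at least 2 markers.

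Of 9119 genes with a mean of at least 20 CPM in any name, 96 (1.05%) were at least 4 times as high in TUFT as in the highest other name and higher in every library with 5 or more cells. These are called TUFT-high genes. The names come from the same transcripts, so the count is a description without a test. EC, the name with the highest summed level of endocrine markers, was the highest other name for 28 of them, SEC-PRO for 16 and NON-EC for 14. The gene just inside the limit was Aldh3a2 at 4.00 times and the one just outside Sec14l1 at 3.95 times. Of 76 genes on the tuft lists, 34 were TUFT-high, while 61 TUFT-high genes were on no list. Among the 20 with the largest ratios (model symbols left out) were Rgs13, Hmx3, Hmx2, Gng13, Ltc4s, Alox5ap, Sh2d7, Dclk1, Lrmp, Pik3cg, Ptgs1, Sh2d6, Pou2f3, Dgki, Pygl, Spib, Nebl, Hpgds and Fyb. They hold transcription factors, eicosanoid enzymes, adaptors better known from blood cells, and 2 enzymes of lipid and inositol signalling, Pik3cg (a G protein-coupled phosphoinositide 3-kinase) and Dgki (a diacylglycerol kinase).

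Promoters of the TUFT-high genes were read for the octamer ATGCAAAT on both strands (reverse complement ATTTGCAT), the letters that POU-domain proteins such as Pou2f3 are known to bind. The windows ran from 250 bases before to 50 after each RefSeq gene start (GRCm38.p6). Of 96 genes 76 matched by symbol, with 103 windows, of which 7 (6.80%) held the octamer, against 570 of 32851 windows (1.74%) of all genes. The promoters of Hpgds, the haematopoietic prostaglandin D synthase, and of Kctd12, a potassium channel tetramerisation domain protein, are shown because both genes are on the tuft lists and hold 1 octamer each, printed in capitals.
Hpgds promoter, minus strand of chr6:65144681-65144980: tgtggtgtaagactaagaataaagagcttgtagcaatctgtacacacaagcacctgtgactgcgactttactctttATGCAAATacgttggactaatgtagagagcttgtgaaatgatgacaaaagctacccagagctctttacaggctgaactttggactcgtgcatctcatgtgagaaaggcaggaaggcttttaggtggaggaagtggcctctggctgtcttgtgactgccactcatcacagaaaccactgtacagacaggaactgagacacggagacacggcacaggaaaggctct
Kctd12 promoter, minus strand of chr14:102982588-102982887: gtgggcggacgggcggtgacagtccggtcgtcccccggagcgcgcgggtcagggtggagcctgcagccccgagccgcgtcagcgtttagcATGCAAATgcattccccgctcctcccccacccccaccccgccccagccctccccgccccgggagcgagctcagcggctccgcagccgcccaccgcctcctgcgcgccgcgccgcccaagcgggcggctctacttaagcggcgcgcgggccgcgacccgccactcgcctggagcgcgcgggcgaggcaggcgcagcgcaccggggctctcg
The octamer begins 174 bases before the Hpgds start and 160 bases before the Kctd12 start, on the strand of the gene in each. Hpgds was at 461 and 512 CPM in the WT pair and at 473 and 356 CPM in the APC-KO pair, against 8.27 CPM in EEC-PRE. Kctd12 was at 3301 and 4007 CPM in the WT pair and at 2215 and 2085 CPM in the APC-KO pair, against 409 CPM in NON-EC. Both were high in all 4 libraries. A match of letters is a description and names no bound site.

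Of 15 genes of the taste-like chain, 5 were TUFT-high, counting Trpm5, while most receptors gave few UMIs or none. Gng13, the gamma subunit of the taste G protein, was at 262 and 155 CPM in the WT pair and at 284 and 464 CPM in the APC-KO pair, 137 times its level in EC. Plcb2, the phospholipase C of the chain, was at 219.6 and 228 CPM in the WT pair and at 75.7 and 129 CPM in the APC-KO pair, and Itpr2, a calcium release channel of the endoplasmic reticulum, at 698 and 532 CPM in the WT pair and at 416 and 563 CPM in the APC-KO pair. Each of these was TUFT-high, as was Ffar3, the receptor for short-chain fatty acids, at 35.3 and 67.1 CPM in the WT pair and at 18.9 and 35.9 CPM in the APC-KO pair. Itpr3, the release channel of taste buds, was not: TUFT held 51.2, 24.7, 0 and 56.8 CPM while EC held 195 CPM. Gnat3, the alpha subunit gustducin, gave 39 UMIs in all TUFT cells together, Tas1r3 19, the succinate receptor Sucnr1 17 and Gnb3 4. No UMI was counted for Tas1r1, Vmn2r26, Tas2r108, Tas2r138 or Tas2r143. With cells thinned to 2000 UMIs, 0 of 572 TUFT cells allow a share of up to 0.643% with a UMI of such a gene, for counting error alone.

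Tuft transcription factors were mostly at low levels outside TUFT. Pou2f3, which tuft cells require, was at 205 and 254 CPM in the WT pair and at 246 and 140.2 CPM in the APC-KO pair, against 2.77 CPM in SEC-PRO. The homeobox genes Hmx2 and Hmx3 were at 249, 319.8, 227 and 129.8 CPM and 292, 336, 265 and 183 CPM in the 4 libraries in the order given above, at least 153 and at least 178 times the highest other name with 3 counts per name taken as the floor. Spib, an Ets factor, Runx1 and Gfi1b were TUFT-high too, and 69 UMIs of Gfi1b were counted in all. Thus 6 of 9 listed factors met the limit. The other 3 were shared with other names. Sox9 was at 630.4 and 592 CPM in the WT pair and at 587 and 437 CPM in the APC-KO pair, above 310.4 CPM in PANETH-PRE in every library, and Ehf was 3.70 times the ISC level. Sox4 was higher in the endocrine precursors (EEC-PRE, 3515 CPM) than in TUFT (932, 1277, 2423 and 900.5 CPM).

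The secretory factors were low. Atoh1, whose promoter drives the recombinase and whose cells the reporter marks, was at 14.8 and 1.77 CPM in the WT pair and at 18.9 and 28.97 CPM in the APC-KO pair (40 UMIs), against 198 CPM in GP. Spdef, a goblet and Paneth factor, was at 27.3, 24.7, 37.9 and 40.6 CPM against 225 CPM in GP. Gfi1 gave 1 UMI, Neurog3 40 and Neurod1 27. None of the 12 listed secretory factors was highest in TUFT. At 2000 UMIs per cell Atoh1 was seen in 2.45% of thinned TUFT cells of all libraries together (exact 95% interval 1.34 to 4.07%) and in 1.99% of EC cells. The interval covers counting error in the pooled cells alone and does not test TUFT against EC.

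Eicosanoid synthesis was present as a chain. Pla2g4a, which frees arachidonic acid, was at 424 and 555 CPM in the WT pair and at 379 and 239.9 CPM in the APC-KO pair. Ptgs1, the constitutive cyclooxygenase, was at 145 and 228 CPM in the WT pair and at 75.7 and 62.6 CPM in the APC-KO pair, against 1.17 CPM in EC. On the leukotriene side, Alox5ap, the helper of 5-lipoxygenase, was at 770.4 and 984 CPM in the WT pair and at 663 and 476 CPM in the APC-KO pair and Ltc4s, the leukotriene C4 synthase, at 517 and 532 CPM in the WT pair and at 416 and 289.7 CPM in the APC-KO pair. These 4 and Hpgds were TUFT-high, 5 of 10 listed genes. Alox5 itself was at 97.9, 98.9, 0 and 56.8 CPM, above every other name on average but with no UMI in APC-KO replicate 1, where a count of 0 allows up to 56.8 CPM (3 UMIs). Ptgs2, the inducible cyclooxygenase, gave 4 UMIs, Tbxas1 1 and Ptges 0. Hpgd, which inactivates prostaglandins, was higher in GOBLET (354 CPM) than in TUFT (39.8, 33.6, 0 and 46.4 CPM).

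Of the cytokine axis, the receptor chain Il13ra1 stood out, at 584 and 747 CPM in the WT pair and at 549 and 426 CPM in the APC-KO pair, 9.21 times the GOBLET-PRE level. It was the only TUFT-high gene of 8 listed. Il25, the cytokine tuft cells are known for, gave 25 UMIs. It was seen in 3.13% of TUFT cells and in 1.22% of thinned TUFT cells (exact 95% interval 0.493 to 2.51%), against 0% of EC cells. Il17rb, the IL-25 receptor, was at 39.8 and 33.6 CPM in the WT pair and at 18.9 and 26.7 CPM in the APC-KO pair, and Il4ra, which pairs with Il13ra1, at 52.3 and 47.7 CPM in the WT pair and at 37.9 and 35.9 CPM in the APC-KO pair, close to 36.5 CPM in GP. Tslp gave 4 UMIs, and Il33 and Il2rg gave 0. Chat, the enzyme that makes acetylcholine, gave 23 UMIs over 638 cells, its vesicle transporter Slc18a3 1 and the choline transporter Slc5a7 0.

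Among structural genes, Fyb, an adaptor that links receptors to actin, was at 1204 and 1148 CPM in the WT pair and at 1041 and 819 CPM in the APC-KO pair, 54.03 times EC, and Espn (espin), which bundles actin in microvilli, was 7.81 times GOBLET. With Avil they were the TUFT-high genes of 9 listed. Keratins were shared: Krt18 was at 3099, 3949, 2044 and 2205 CPM against 2101 CPM in GOBLET-PRE, and Krt8 was higher in GOBLET. Vil1, the general brush border protein villin, was at 404, 447, 170.4 and 337 CPM, near 400.3 CPM in ENTERO-PRO.

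Signalling and surface genes were the largest group, with 13 of 20 TUFT-high and all 20 highest in TUFT among the 12 names. Sh2d6 and Sh2d7, SH2 domain proteins, reached 81.2 and 95.7 times EC, and Inpp5d, the inositol phosphatase SHIP1, at least 49.1 times the highest other name. Lrmp, a lymphoid-restricted membrane protein and no list member, was at 2536 and 2961 CPM in the WT pair and at 2120.2 and 1408 CPM in the APC-KO pair. The pan-leukocyte gene Ptprc nevertheless gave only 11 UMIs, Rac2 75 and Siglecf 56. Defining immune markers were at or near 0: of 10 listed, C1qa, C1qb, Csf1r and Cx3cr1 had no UMI and the summed level was 0 to 31.3 CPM per library, most of it Gzma (27 UMIs). The mast cell genes Cpa3, Mcpt1, Ms4a2 and Fcer1a and 5 of 6 stromal markers had no UMI in TUFT cells. Kit, which is on the mast cell list, was at 217 and 261 CPM in the WT pair and at 170.4 and 301 CPM in the APC-KO pair, but EEC-PRE held it as well at 193 CPM.

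**Figure D2:**
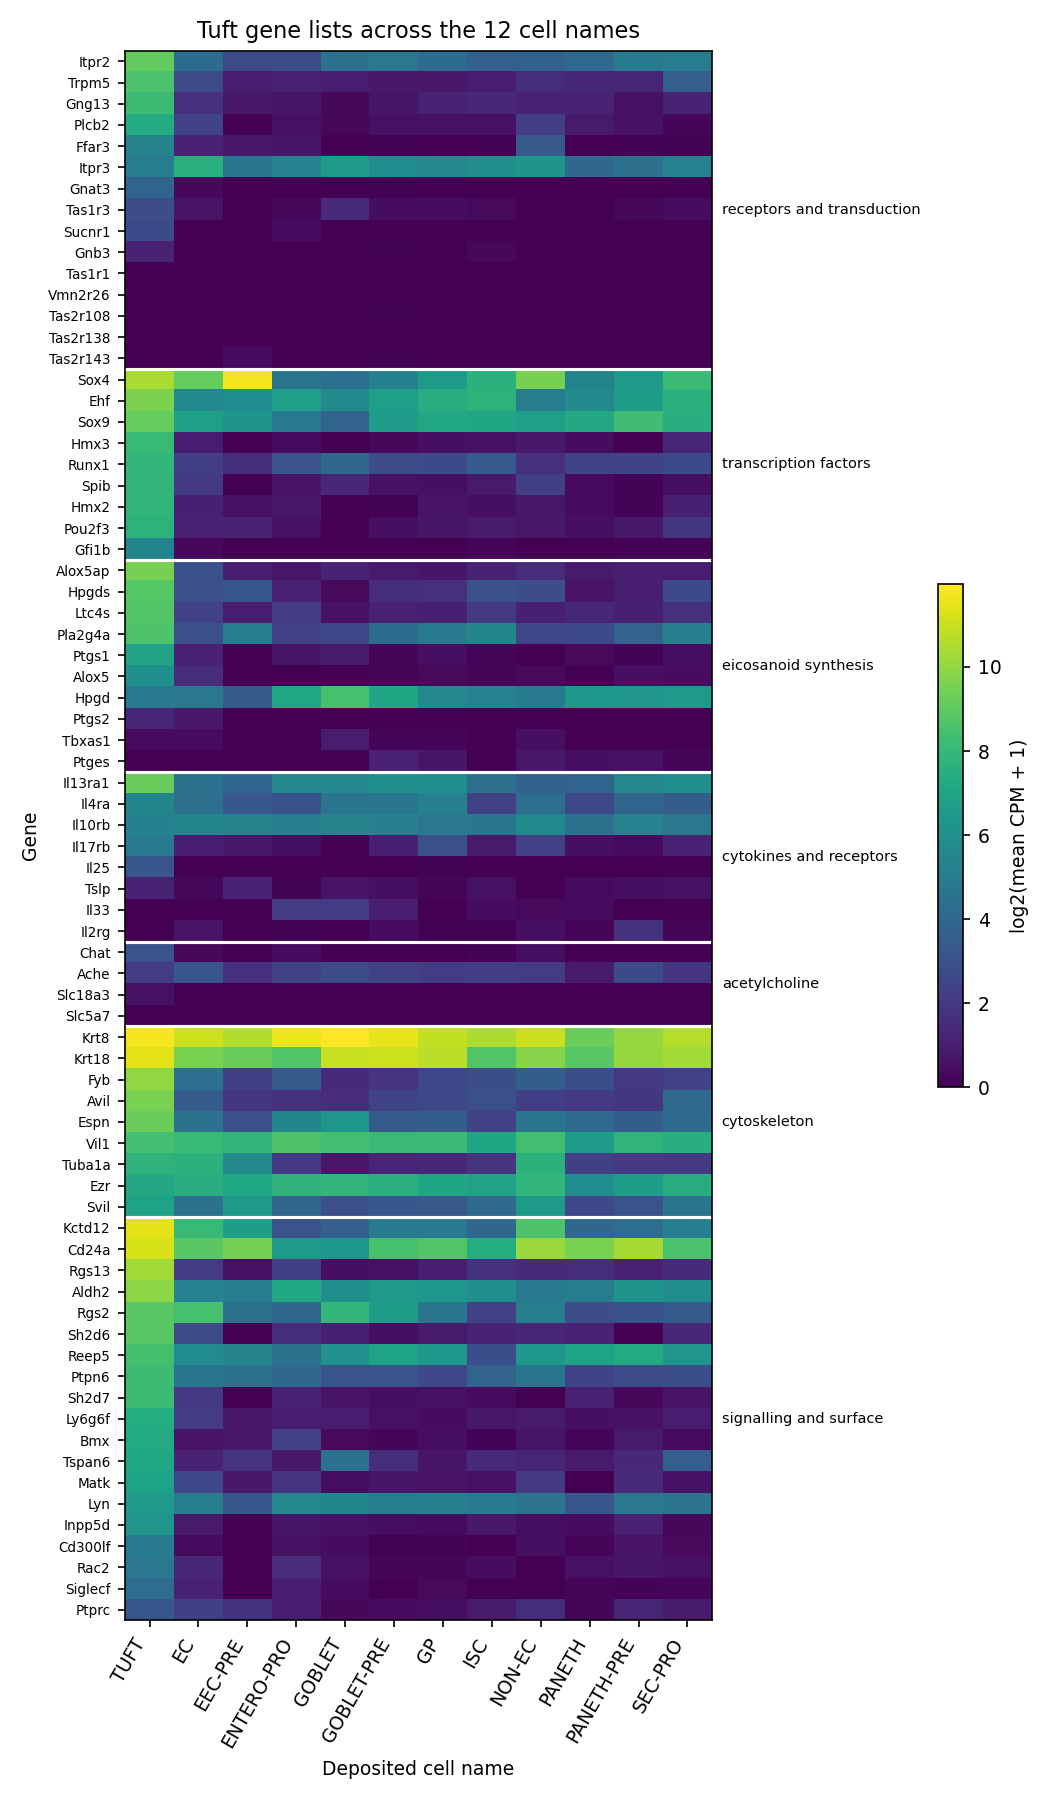
Mean level of the genes shown from the 7 tuft lists as log2(mean CPM + 1), genes in rows grouped by list and the 12 deposited cell names in columns. The TUFT column is bright for transcription factors, eicosanoid and signalling genes and dark for taste receptors and acetylcholine genes, of which none was TUFT-high.

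Several crypt genes were kept in TUFT cells. Smoc2, a stem cell marker, was at 255 and 208 CPM in the WT pair and at 208 and 239.9 CPM in the APC-KO pair, above 123 CPM in SEC-PRO in each library, and Ascl2, the stem cell transcription factor, at 64.9 and 79.5 CPM in the WT pair and at 114 and 56.8 CPM in the APC-KO pair against 57.7 CPM in ISC. Ephb2, a receptor of crypt cells, was at 197, 166, 170.4 and 167 CPM against 106 CPM in NON-EC, and Nkd1, a Wnt feedback inhibitor, was the 1 TUFT-high gene of 16 Wnt targets, 5.77 times PANETH. That ratio rests more on the APC-KO pair: Nkd1 was at 61.4 and 58.3 CPM in the WT pair and at 189 (10 UMIs) and 102 CPM in the APC-KO pair, against 17.8 CPM in PANETH. Olfm4 and Lgr5 were not above ISC on average. Olfm4 was at 201, 122, 18.9 and 438 CPM against 2960.3 CPM in ISC, and Lgr5 was at 37.6, 15.9, 37.9 and 42.9 CPM, near 40.2 CPM in ISC. All 16 cell cycle genes were lower in TUFT than in the highest other name: Mki67 was at 28.4, 14.1, 0 and 59.1 CPM against 586 CPM in SEC-PRO. The summed list was at 245, 246, 133 and 440 CPM in TUFT, against 2298 CPM in SEC-PRO and 200 CPM in EC, so it was not low beside EC.

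No gene met the limit for TUFT-low, a mean of at most 1 part in 4 of the lowest other name, among 898 genes with at least 50 CPM in each other name (0%). The lowest ratio belonged to Eps8, an actin-capping adaptor of microvilli, at 17.1 and 10.6 CPM in the WT pair and at 18.9 and 27.8 CPM in the APC-KO pair against 62.7 CPM in the lowest other name. Next came Gmds, which makes GDP-fucose, Tram1, of the protein translocation channel, Slc35b1, an ATP carrier of the endoplasmic reticulum, and Cd74, the invariant chain. Gmds was at 80.8, 67.1, 94.7 and 118 CPM, against 172 CPM in the lowest and 546 CPM in the highest other name. Tram1 was at 50.1, 65.4, 0 and 56.8 CPM, against 72.0 CPM and 318 CPM. The ratios of these 4 to the lowest other name lay between 0.524 and 0.656, and that of Eps8 was 0.297. Across the 9119 genes the TUFT profile correlated most with GP (Pearson r = 0.810 of log2(CPM + 1)) and SEC-PRO (0.807) and least with GOBLET (0.701), which is given as a description, since the names share libraries and housekeeping genes.

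TUFT cells varied among themselves in how much of the programme they carried. The 96 TUFT-high genes made up a median of 3.57% of a cell's UMIs in WT replicate 1, 3.86% in WT replicate 2, 2.49% in APC-KO replicate 1 and 2.58% in APC-KO replicate 2, with single cells between 0.441% and 6.91%. The median EC cell held 0.135%, 0.146%, 0.0943% and 0.145%. Both WT medians lay above both APC-KO medians, and the ranges of single cells overlapped. With cells thinned to 2000 UMIs, Rgs13 was seen in 74.2%, 76.5%, 37.5% (3 of 8 cells) and 66.8% of TUFT cells, and in 0.663% of EC cells over all libraries. Gng13 was seen in 35.2%, 24.4%, 25% (2 of 8) and 51.7%. Before thinning these shares were 81.4%, 85.4%, 50% and 72.8% for Rgs13 and 53.3%, 45.5%, 50% and 58.0% for Gng13. Thinning left out 18, 4, 0 and 44 TUFT cells with fewer UMIs.

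Some TUFT cells held much goblet RNA. The goblet list (10 genes, among them the mucin Muc2, the trefoil peptide Tff3, Fcgbp and Zg16) made up a median of 0.285%, 0.179%, 0.212% and 0.368% of a TUFT cell's UMIs, below the EC medians of 0.347%, 0.223%, 0.325% and 0.445% of the same libraries. A limit was set at the 95th percentile of EC cells of each library, 1.71%, 1.01%, 1.01% and 3.24%. Above it lay 6 of 231 TUFT cells in WT replicate 1 (2.60%, exact 95% interval 0.959 to 5.57%), 4 of 123 in WT replicate 2 (3.25%, 0.893 to 8.12%), 0 of 8 in APC-KO replicate 1 (up to 36.9%) and 32 of 276 in APC-KO replicate 2 (11.6%, 8.07 to 15.97%). These few cells held 38.9%, 49.9% and 87.3% of the goblet UMIs of the TUFT sums of WT replicates 1 and 2 and APC-KO replicate 2. In APC-KO replicate 2 the highest cell held 33.6% goblet UMIs, and 23 cells held over 5%. With cells thinned to 2000 UMIs the shares above the limit were 2.82%, 4.20%, 0% and 12.9%.

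Of these 42 cells, 40 held UMIs of at least 2 of the 4 tuft markers. In APC-KO replicate 2 they had a median of 4864 UMIs against 2613 in the other TUFT cells, and the TUFT-high genes made up 1.40% against 2.78% of their UMIs. The same held in WT replicate 1, with 5712 against 3849 UMIs and 1.85% against 3.58%. In WT replicate 2 the 4 cells had 4161 against 4684 UMIs and 3.05% against 3.91%. In APC-KO replicate 2 the summed cells above the limit held Zg16 at 42898 CPM and Dclk1 at 739 CPM, and those below it Zg16 at 737 CPM and Dclk1 at 1164 CPM. Atoh1 was at 88.4 CPM above and 15.6 CPM below the limit. Barcodes with 1 to 50 UMIs, a measure of free RNA in the droplets, drew 5.89% to 6.46% of their UMIs from the goblet list in the 4 libraries. They drew 0.0117%, 0.0111%, 0.00662% and 0.0102% from the 4 tuft markers. What part droplets with 2 cells had in these profiles was not tested, and no doublet caller was run.

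**Figure D3:**
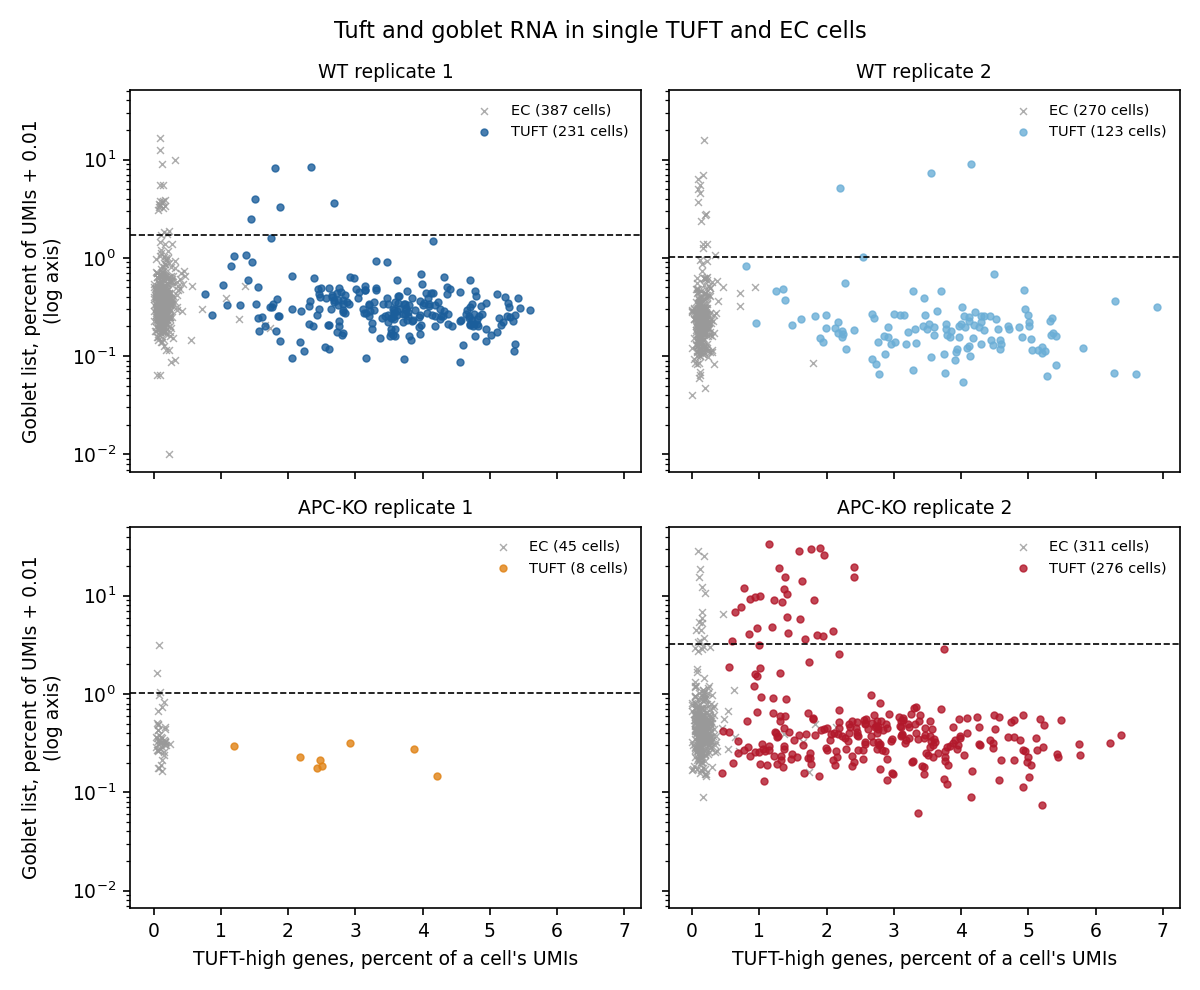
Percent of UMIs from the goblet list, plus 0.01 on a log axis, against percent of UMIs from the 96 TUFT-high genes for each TUFT cell (coloured) and EC cell (grey crosses) of the 4 libraries, with the EC 95th percentile dashed. Above the dashed line lie 6, 4, 0 and 32 TUFT cells, and those of APC-KO replicate 2 lie to the left of most other TUFT cells.

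TUFT cells made up 4.80% of the kept cells of WT replicate 1 (exact 95% interval 4.21 to 5.44%), 3.22% of WT replicate 2 (2.68 to 3.83%), 2.25% of APC-KO replicate 1 (0.975 to 4.38%) and 4.42% of APC-KO replicate 2 (3.92 to 4.96%). The group means were 4.01% ± 1.12 in WT and 3.33% ± 1.54 in APC-KO (SD, n = 2 each). The difference of -0.675 percentage points was within the spread between libraries (two-sided exact permutation test, p = 0.6667, where 0.3333 is the smallest p that 2 against 2 can give). Its direction turned without WT replicate 1 (0.115 points) and without APC-KO replicate 1 (0.412 points). Counting cells with at least 2 of the 4 markers, whatever their name, gave -1.11 points, and there the same libraries left out gave -0.181 and -0.0282 points, with no turn. The intervals cover counting error only, and the reporter sort stood before every share.

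The genotypes were then compared within TUFT cells, on the counts summed per library. Apc, the targeted gene, was at 129 and 122 CPM in the WT pair and 75.7 and 129 CPM in the APC-KO pair, the third value resting on 4 UMIs. Libraries of this kind count the 3' end of a transcript, and which part of Apc was floxed is not given in the labels, so the level checks no label. Of 7695 genes tested, 13 (0.169%) passed an adjusted p of 0.05 in edgeR, 10 higher (0.13%) and 3 lower (0.039%) in APC-KO, and 811 had an unadjusted p under 0.05. For 8 of the 13 the WT and APC-KO values did not overlap, as for 39.7% of all genes tested. No TUFT-high gene was among the 13.

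Mt1, a metallothionein that binds zinc, was at 35.3 and 8.83 CPM in the WT pair and at 75.7 and 227 CPM in the APC-KO pair. It rose by 3.18 ± 0.41 (SE, n = 2 against 2; edgeR adjusted p = 0.00476) on the log2 scale, and APC-KO replicate 2 was the higher of its pair. Snhg18, a long noncoding host gene of a small nucleolar RNA, was at 13.7 and 15.9 CPM in the WT pair and at 56.8 and 60.3 CPM in the APC-KO pair and rose by 2.16 ± 0.37 (SE, n = 2 against 2; edgeR adjusted p = 0.0374). Both APC-KO libraries lay above both WT libraries, although the 2 values of APC-KO replicate 1 rest on 4 and 3 UMIs. Without APC-KO replicate 2 the change of Mt1 was 1.62 (edgeR adjusted p = 0.849), and without WT replicate 1 it was 4.49 (edgeR adjusted p = 1.00). The rule named 3 other rises. Rpl37, a protein of the large cytosolic subunit with near-identical processed copies in the genome, was at 1564 and 919 CPM in the WT pair and at 3899.6 and 3926 CPM in the APC-KO pair and rose by 1.74 ± 0.32 (SE, n = 2 against 2; edgeR adjusted p = 0.0474). Mrpl48, of the mitochondrial ribosome, was at 53.5 and 42.4 CPM in the WT pair and at 189 and 122 CPM in the APC-KO pair and rose by 1.52 ± 0.27 (SE, n = 2 against 2; edgeR adjusted p = 0.0457). Wdr43, a ribosome assembly factor, was at 91.03 and 74.2 CPM in the WT pair and at 170.4 and 205 CPM in the APC-KO pair and rose by 1.38 ± 0.25 (SE, n = 2 against 2; edgeR adjusted p = 0.0474). The rule required groups without overlap. Without the cells of high goblet share Mt1 was still called, while the 4 other rises kept their size and missed the threshold (edgeR adjusted p from 0.0530 to 0.0680). In TUFT, the APC-KO replicate 1 values of Mrpl48 and Wdr43 rest on 10 and 9 UMIs. EC cells held Mt1 at 37.5, 21.4, 43.9 and 169 CPM and Rpl37 at 1207, 697, 1826 and 2434 CPM, the WT libraries first. In the same order EC held Mrpl48 at 54.3, 55.6, 69.5 and 72.9 CPM and Wdr43 at 59.9, 52.4, 40.3 and 122 CPM. The 11 other names together held Wdr43 at 72.4, 53.6, 43.6 and 190 CPM, again highest in APC-KO replicate 2 and lowest in APC-KO replicate 1. None of Mt1, Rpl37, Mrpl48 and Wdr43 passed the interaction test described last.

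C2cd4b, a C2 domain gene, was the fall named by the rule, at 67.1 and 77.7 CPM in the WT pair and at 18.9 and 4.64 CPM in the APC-KO pair or 59, 44, 1 and 4 UMIs, and changed by -3.52 ± 0.50 (SE, n = 2 against 2; edgeR adjusted p = 0.00894). Without APC-KO replicate 2 the change was -1.91, resting on the 1 UMI of APC-KO replicate 1. EC held C2cd4b at 71.1, 97.3, 80.5 and 35.3 CPM, the WT libraries first. In EC it was thus lowest in APC-KO replicate 2, while APC-KO replicate 1 lay within the WT range. The 11 other names together were also lowest in APC-KO replicate 2, at 7.76 CPM, and highest in APC-KO replicate 1, at 30.8 CPM. C2cd4b nevertheless passed the interaction test described last. The 2 other genes called lower, named after their values were seen, were Gm14851 (106, 186, 0 and 1.16 CPM) and AY761184 (185, 216, 18.9 and 60.3 CPM). Both were highest in PANETH cells, at 34036 and 39834 CPM, and belong to the alpha-defensins, a family of near-identical copies. Both were lower in the APC-KO libraries in EC cells as well. EC held Gm14851 at 137, 221, 29.3 and 0 CPM and AY761184 at 198, 265, 54.9 and 62.6 CPM. Neither gene passed the interaction test described last. With free RNA subtracted at 5% of each sum, the difference of AY761184 shrank from -1.69 to -0.30 (edgeR adjusted p = 0.952), and Gm14851 then did not pass the filter on low counts.

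The 5 other genes called higher, also named after their values were seen, overlapped between the groups, with APC-KO replicate 2 high and APC-KO replicate 1 within or below the WT range. S100a6, a calcium-binding protein, was at 18.2, 17.7, 0 and 173 CPM in the 4 libraries and Dmbt1, a secreted scavenger receptor, at 37.6, 14.1, 18.9 and 203 CPM. The chemokine Ccl6 was at 70.6, 24.7, 18.9 and 351 CPM and the antigen presentation gene Cd74 at 63.7, 14.1, 56.8 and 225 CPM. The histone gene Hist1h4d, 1 of many near-identical H4 genes, was at 21.6, 24.7, 18.9 and 107 CPM. In the EC sums all 5 were highest in APC-KO replicate 2 as well. EC held Dmbt1 at 53.5, 40.6, 47.6 and 195 CPM and Cd74 at 106, 89.8, 117 and 235 CPM. Hist1h4d was there at 39.1, 14.96, 21.96 and 85.4 CPM. Dmbt1, Cd74 and Hist1h4d were also highest in APC-KO replicate 2 in the 11 other names together, and none passed the interaction test described last. S100a6 and Ccl6 were not highest there and passed it. Each of the 5 rests on 1 library: without APC-KO replicate 2, S100a6, Dmbt1, Ccl6 and Hist1h4d had the opposite sign (-6.19, -0.56, -1.43 and -0.27, the first with no UMI in the APC-KO library left, so that its size depends on the prior count), and Cd74 was at 0.39. Ccl6 fell from 2.60 to 1.05 (edgeR adjusted p = 0.367) without the TUFT cells of high goblet share, and S100a6 then did not pass the filter on low counts.

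A further 4 falls were named by the rule for their low p, and none passed. Ptgs1, the cyclooxygenase described above, differed by -1.38 ± 0.31 (SE, n = 2 against 2; edgeR adjusted p = 0.0724), with the groups apart. In thinned cells it was seen in 22.1% and 26.1% of WT and 25% (2 of 8) and 8.19% of APC-KO TUFT cells, and in 32.0%, 44.7%, 25% and 12.3% before thinning. Rgs22, a regulator of G protein signalling and TUFT-high, was at 169.6 and 173 CPM in the WT pair and at 37.9 and 67.2 CPM in the APC-KO pair and differed by -1.28 ± 0.27 (SE, n = 2 against 2; edgeR adjusted p = 0.0682). Tm4sf4, a tetraspanin-like membrane protein, was at 335 and 401 CPM in the WT pair and at 18.9 and 119 CPM in the APC-KO pair (edgeR adjusted p = 0.0568). Zfp36, which destabilises mRNA, was at 94.4 and 118 CPM in the WT pair and at 94.7 and 22.02 CPM in the APC-KO pair (edgeR adjusted p = 0.0682). In the EC sums both were lowest in APC-KO replicate 2. Tm4sf4 was there at 472, 598, 410 and 217 CPM and Zfp36 at 274, 323, 315 and 106 CPM. Neither passed the interaction test described last.

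**Figure D4:**
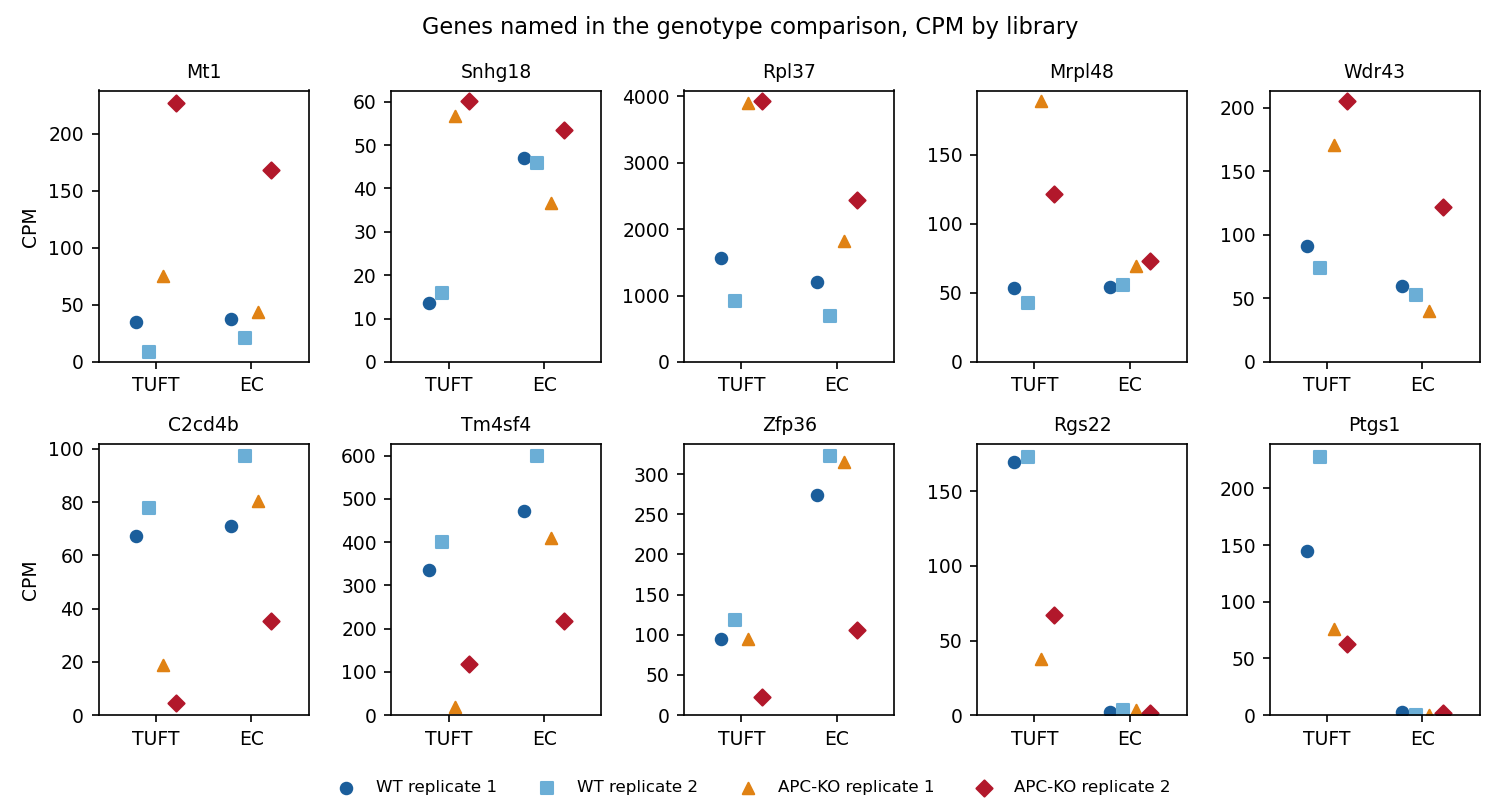
CPM of the 10 genes named by the rule, in the TUFT sum and the EC sum of each library, with 1 point per library. The 5 rises and C2cd4b, for which the rule required groups without overlap, lie apart in the TUFT sums of the genotypes. Tm4sf4, Rgs22 and Ptgs1, which did not pass the threshold, lie apart as well. Zfp36 overlaps at 94.4 CPM in WT replicate 1 and 94.7 CPM in APC-KO replicate 1.

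The tuft lists held no gene past the threshold. Of 94 TUFT-high genes tested, 12 had a higher and 82 a lower point estimate in APC-KO, with a median log2 difference of -0.42, while 3716 of all 7695 genes were higher and 3979 lower, with a median of -0.02. The medians of the lists were -0.28 for receptors and transduction (7 genes tested), -0.41 for transcription factors (9), -0.59 for eicosanoid synthesis (7), -0.36 for cytokines and their receptors (4), -0.41 for the cytoskeleton (9) and -0.30 for signalling (19). Rgs13 differed by -1.19 ± 0.31 (SE, n = 2 against 2; edgeR adjusted p = 0.145) and Hmx2 by -0.83 ± 0.28 (SE, n = 2 against 2; edgeR adjusted p = 0.301). Gng13 went the other way at 1.08 ± 0.31 (SE, n = 2 against 2; edgeR adjusted p = 0.199), with both APC-KO libraries above both WT libraries. Leaving out the TUFT cells of high goblet share gave a median of -0.38 over the TUFT-high genes, 15 higher and 79 lower.

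The number of genes called depended on single libraries. Without APC-KO replicate 1 and its 8 cells, which leaves 1 APC-KO library assumed to vary like the WT pair, 388 of 8710 genes (4.45%) were called, 277 higher and 111 lower. Of the TUFT-high genes 3 were then called higher and 16 lower. On the tuft lists, Gng13 was called higher at 1.25, and Ptgs1 (-1.41), Rgs2 (-1.06), Hmx2 (-0.99), Pla2g4a (-0.89) and Tspan6 (-1.15) lower. Calls in this fit were not limited to the tuft lists. Genes of other lists were among them, such as Axin2 (1.98), Olfm4 (1.54), Zg16 (3.58) and Apoa4 (2.33) higher and Zfp36 (-2.11) and the Paneth gene Mptx2 (-1.51) lower. Without APC-KO replicate 2 no gene was called in edgeR, and 393 had an unadjusted p under 0.05. Leaving out WT replicate 1 also gave 0 calls, with 354 such genes, and leaving out WT replicate 2 gave 11.

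Lists of other cell types held no gene past the threshold. Of the goblet list, 9 genes were tested: 8 had a higher point estimate in APC-KO, none passed, and the median was 1.78. The summed goblet level was 5026 and 3601 CPM in the WT pair and 2272 and 26804 CPM in the APC-KO pair. Without the cells of high goblet share that median became 0.57, and it was -1.01 with APC-KO replicate 2 left out. The 7 enterocyte genes tested were all higher as point estimates, with a median of 1.38 and none past the threshold. The summed level of all 10 genes on the enterocyte list was 280 and 375 CPM in the WT pair and 473 and 569 CPM in the APC-KO pair. These groups did not overlap, as for 39.7% of single genes. The summed Paneth list was at 2971 and 2929 CPM in the WT pair and 473 and 4111 CPM in the APC-KO pair. The summed goblet and Paneth levels overlapped between the genotypes. With the cells above the goblet limit left out 4 genes were called (Mt1, Dmbt1, C2cd4b and Gm14851), and with free RNA subtracted 13, of which 7 were among the 13 called before. Without APC-KO replicate 1, the only APC-KO library left was the one with 32 TUFT cells above the goblet limit. In that fit the log2 differences of the goblet list ran from -0.09 (Creb3l4) to 3.58 (Zg16). Those of the tested enterocyte genes ran from 0.23 (Fabp1) to 2.33 (Apoa4).

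Wnt targets, which Apc loss is known to raise, gave no call among 9 tested, with a median of 0.58, 6 genes higher and 3 lower. Axin2, the classic feedback target, was at 33.00 and 19.4 CPM in the WT pair and at 18.9 and 99.7 CPM in the APC-KO pair and differed by 1.86 ± 0.38 (SE, n = 2 against 2; edgeR adjusted p = 0.0650), with APC-KO replicate 1 at 1 UMI. Nkd1 was at 61.4 and 58.3 CPM in the WT pair and at 189 and 102 CPM in the APC-KO pair and differed by 1.01 ± 0.27 (SE, n = 2 against 2; edgeR adjusted p = 0.159), with the groups apart. Without APC-KO replicate 1, which leaves 1 APC-KO library, Axin2 was at 1.98 and Nkd1 at 0.89. Without APC-KO replicate 2, Axin2 was at -0.53 and Nkd1 at 1.65. The stem cell genes gave a median of 0.41 over 8, among them Cdca7 at 19.3, 14.1, 75.7 and 50.99 CPM and 1.74 ± 0.38 (SE, n = 2 against 2; edgeR adjusted p = 0.0717). The cell cycle list gave 0.67 over 9, with Mki67 at 28.4, 14.1, 0 and 59.1 CPM. Cell cycle genes had a median of -3.22 without APC-KO replicate 2, and 12 of the 16 listed genes had no UMI in the 8 cells of the other library. Atoh1 was at 14.8, 1.77, 18.9 and 28.97 CPM and differed by 1.67 ± 0.60 (SE, n = 2 against 2; edgeR adjusted p = 0.327).

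**Figure D5:**
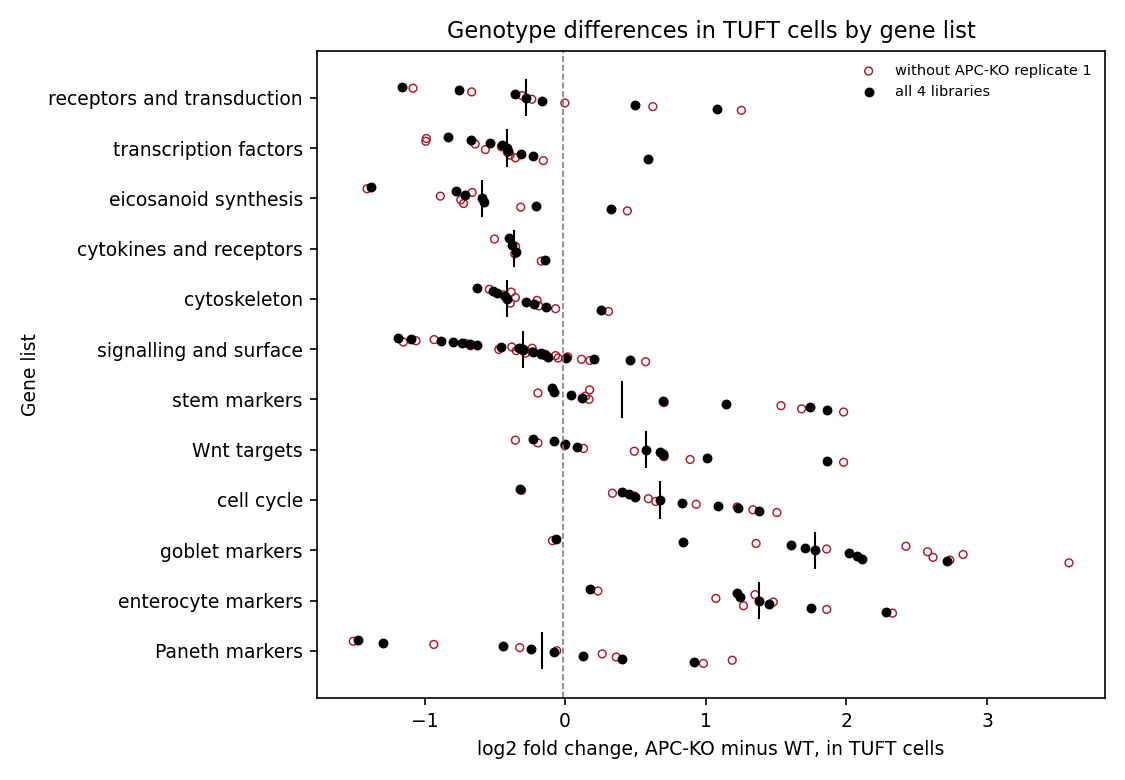
Log2 fold change, APC-KO minus WT, of each tested gene by list, filled for the fit with all 4 libraries and open for the fit without APC-KO replicate 1, with list medians as bars and the median of all genes dashed. The 6 tuft lists have medians between -0.59 and -0.28, the goblet list 1.78 and the enterocyte list 1.38, and no filled point passed the threshold.

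The genotype difference of TUFT cells was compared with that of EC cells of the same libraries by an interaction term with the library as a block. Of 9529 genes, 27 (0.283%) passed, 19 higher and 8 lower in TUFT relative to EC, and 534 had an unadjusted p under 0.05. Of the 19, 6 were on the goblet list (Muc2, Zg16, Fcgbp, Agr2, Spink4 and Clca1). Muc2 had an interaction of 1.80 ± 0.22 (SE, n = 2 against 2; edgeR adjusted p = 1.19e-11), with TUFT at 263, 168, 151 and 1330.4 CPM and EC at 498, 342, 183 and 699 CPM. Leaving out TUFT and EC cells of high goblet share took Muc2 to 0.55 (edgeR adjusted p = 0.870) and Rep15, a gene of GOBLET-PRE cells, from 1.97 to 0.31. With those cells left out 15 genes were called, 3 higher and 12 lower, and 9 of the 27 remained.

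For 8 genes the genotype difference was lower in TUFT than in EC. Rgs2, a regulator of G protein signalling on the tuft list, was at 607, 751, 284 and 296 CPM in TUFT and 263, 221, 692 and 279 CPM in EC, an interaction of -1.71 ± 0.23 (SE, n = 2 against 2; edgeR adjusted p = 1.01e-10). Both APC-KO libraries were below both WT libraries in TUFT and above them in EC. Nrep, a neuronal regeneration-related gene and TUFT-high, was at 269.7, 306, 189 and 93.9 CPM in TUFT and 23.2, 22.4, 21.96 and 36.4 CPM in EC, an interaction of -1.98 ± 0.43 (SE, n = 2 against 2; edgeR adjusted p = 0.00279). C2cd4b had an interaction of -2.54 ± 0.65 (SE, n = 2 against 2; edgeR adjusted p = 0.0326). Without the cells of high goblet share these 3 were -1.67, -1.86 and -3.02 and stayed past the threshold. The genotype difference of Snhg18 was higher in TUFT than in EC by 1.91 ± 0.48 (SE, n = 2 against 2; edgeR adjusted p = 0.0259), with EC at 47.1, 45.95, 36.6 and 53.5 CPM, and was not past it without those cells (1.81, edgeR adjusted p = 0.150). Leaving out WT replicate 1 or WT replicate 2 gave 0 calls in edgeR, with 219 and 174 genes at an unadjusted p under 0.05. Without APC-KO replicate 1 the interaction count was 64, and without APC-KO replicate 2 it was 10. In these 2 fits Rgs2 was at -1.27 and -3.03, Nrep at -2.17 and -0.82, Muc2 at 1.99 and 0.40 and Rep15 at 2.10 and 0.67, and without APC-KO replicate 2 only Rgs2 of these 4 was called.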

How the data were processed

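Single-cell 3' v3.1 libraries were counted with Cell Ranger 3.0.2 and STAR on mm10, per the submitters' processing notes. The deposited unfiltered matrices hold UMI counts for 31053 genes. The tables deposited by the authors give each kept cell its UMI and gene counts, its mitochondrial percent and other values, a library and a cell name. No source used here states the filters, the naming or any doublet removal, and no doublet caller was run. Kept cells had 901 to 2999 genes in the deposited tables.

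UMIs were summed per library and name. For tests of genotype, edgeR 4.0.16 under R 4.3.3 was fitted to TUFT sums, or to TUFT and EC sums (TMM, filterByExpr, quasi-likelihood test, Benjamini-Hochberg at 0.05). Both fits were tested on simulated data. Levels of a name are means of CPM over libraries with at least 5 cells. Positions came from GENCODE M21 and promoters from RefSeq (GRCm38.p6).

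The members and lists were chosen with earlier results of these data known. Named were list genes, the 20 TUFT-high genes with the largest ratio, the 5 lowest TUFT ratios, and per direction the 5 largest changes past the threshold (3 in the interaction) with a mean of at least 20 CPM and no overlap, filled up by lowest p. A gene that the rule named is not reported here. Alternatives were other scalings, filters, DESeq2 1.42.0, thinning, free RNA subtraction, the replicate number as a block and each library left out. Leaving out cells of high goblet share together with APC-KO replicate 1, or in the interaction, was chosen after seeing the data.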

Additional observations from a re-analysis of the deposited data

Results flagged for a closer look

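The genotype difference differed between TUFT and EC cells by the interaction test for 27 genes. Among the genes named by the rule, the interaction on the log2 scale was 1.97 for Rep15, 1.91 for Snhg18, 1.80 for Muc2, -2.54 for C2cd4b, -1.98 for Nrep and -1.71 for Rgs2. For Rep15 the TUFT sums held 14.8, 17.7, 18.9 and 62.6 CPM and the EC sums 36.7, 35.3, 21.96 and 35.3 CPM (the WT libraries first).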

How the results depend on the processing

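The count of genes called between genotypes in TUFT cells, 13 in edgeR, was 13 with DESeq2 size factors and with free RNA subtracted at 5% (7 of the 13 shared). It was 155 with no filter beyond 1 count, 62 with cells thinned to 2000 UMIs, 5 with cells of at least 2000 UMIs, 4 without cells of high goblet share, 321 without those and APC-KO replicate 1, and 1 in the DESeq2 Wald test. The cause was not tested. It ranged from 0 to 388 when 1 library was left out. No source used here says whether replicate numbers pair the samples. The deviations of same-numbered libraries correlated at -0.0618 over 7695 genes. That value cannot decide on pairing, since APC-KO replicate 1 rests on 8 TUFT cells. The fit with the replicate block called 2. The interaction count of 27 ranged from 0 to 64 with 1 library left out and was 15 without cells of high goblet share. With 1 library left out, with or without the cells of high goblet share, the log2 difference ranged from -6.19 to 3.38 for S100a6, from -0.56 to 3.60 for Dmbt1, from -1.43 to 3.44 for Ccl6 and from -0.27 to 2.37 for Hist1h4d, each reversed without APC-KO replicate 2. The difference in TUFT share ranged from -1.76 to 0.412 points and turned without WT replicate 1 (0.115) and without APC-KO replicate 1 (0.412). At 8-fold, 56 of the 96 TUFT-high genes were left, and at 2-fold 1 gene was TUFT-low. The 96 became 92 in thinned cells, with 75 shared. Depth limits APC-KO replicate 1 most, where 1 UMI is 18.9 CPM.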
